A study of Caenorhabditis elegans with 21 samples.

Results

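Expression of 8 genes of the nematode C. elegans (H19N07.3, cls-3, dyf-3, ZC317.7, T03D3.5, F42A9.6, W06A11.4 and T28F4.6) was followed through 21 mRNA-seq libraries of whole worms. The genes were taken, out of 22840 in the deposited table, because the effect of a pmk-1 mutation on them differed in these libraries between worms with and without daf-16. All 8 passed the filter on low values, a mean of at least 1 TPM (a level scaled to transcript length and to the library's total) over all libraries, as did 12843 genes in all. Wild type, pmk-1(-), which carries allele km25, and pmk-1(D327E), an edit of the endogenous gene that blocks cleavage of PMK-1 by caspase, had 3 libraries each. The strains daf-16(mgDf50) and daf-16(m26), and the 4 double mutants of either allele with pmk-1(-) or pmk-1(D327E), had 2 libraries each. All worms were hatched without food in M9 buffer for 24 hours and then fed E. coli OP50 for 48 hours at 20 °C. The labels give the late L4 larval stage and the study's methods give young adults. Each genotype was 1 strain, so an allele and any other difference of its strain cannot be told apart, and the wild type was a sibling strain of pmk-1(D327E). The study describes the libraries of a genotype as biological replicates.

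PMK-1 is the p38 MAP kinase of C. elegans that acts below TIR-1, NSY-1 and SEK-1 and is known for switching on defence genes in the intestine and the epidermis. DAF-16 is the FOXO transcription factor that insulin signaling through DAF-2 holds out of the nucleus, and it is known for stress resistance and longevity genes. A gene on which both act independently changes by the same log2 step in a pmk-1 mutant whether or not daf-16 is present, and the genes described here were picked for departing from that.

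The level of daf-16 followed the labels. It was 6.1 to 7.8 TPM in the 6 libraries with mgDf50, 55.0 to 61.8 TPM in the 6 with m26 and 41.5 to 47.4 TPM in the 9 with daf-16 intact, and no ranges overlapped. The labels give the same strain name for both doubles with pmk-1(D327E), and the libraries labelled mgDf50 had daf-16 at 7.26 and 7.78 TPM, in the mgDf50 range. The level of pmk-1 was 10.7 to 16.5 TPM throughout, and pmk-1(-) still gave reads on the gene. Averaged over daf-16 backgrounds it was lower in pmk-1(-) (-0.29 on the log2 scale, adjusted p = 0.0438, limma). With daf-16 intact it was 10.7 to 11.8 TPM in pmk-1(-) and 14.1 to 15.3 TPM in wild type. The ranges with and without pmk-1(-) were also apart in mgDf50 but overlapped in m26. The level therefore checks the pmk-1(-) labels only in part, and it does not check those of pmk-1(D327E). Marker lists of every tissue examined were detected in each library. Summed sperm genes varied most, from 1453 to 6708 TPM, and ranged from 1453 to 5491 TPM within wild type alone. Summed body muscle genes came next, at 339 to 1299 TPM. They were 339 to 676 TPM in wild type and 349 to 645 TPM in pmk-1(D327E), below the 736 to 937 TPM of the mgDf50 genotypes. The m26 genotypes had 542 to 919 TPM, and pmk-1(-) spanned 367 to 1299 TPM. The part of such differences in the levels of the 8 genes was not tested. TPM keeps no depth, so the depth behind each value is unknown.

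All 8 genes differed in the size or the direction of a pmk-1 effect between daf-16 backgrounds, which is what they were chosen for, and the differences in this paragraph are a description with no test. The difference between the pmk-1(-) effect in mgDf50 and that with daf-16 intact, on the log2(TPM + 1) scale, was 3.5 (SE 0.34) for ZC317.7, 2.54 (SE 0.36) for F42A9.6, 2.45 (SE 0.24) for dyf-3, 1.68 (SE 0.30) for W06A11.4 and 1.54 (SE 0.26) for T03D3.5. It was negative for cls-3, at -2.37 (SE 0.43), and for H19N07.3, at -1.25 (SE 0.22), and near 0 for T28F4.6, at 0.08 (SE 0.18). T28F4.6 departed instead with pmk-1(D327E), by -1.20 (SE 0.18) in mgDf50. With m26, the pmk-1(-) effect departed most for ZC317.7, by 2.76 (SE 0.34), and for T03D3.5, by 2.07 (SE 0.26). At an adjusted p below 0.1 (limma, Benjamini-Hochberg over all genes tested) 7 of the 8 genes were called for pmk-1(-) with mgDf50, where 0.0779% of all genes tested were, and 2 for pmk-1(-) with m26, where 0.0156% were. For pmk-1(D327E), 2 of the 8 were called with mgDf50, where 0.109% of genes were, and none of the 8 with m26, where 0.0234% were and 3 of the 8 had an unadjusted p below 0.05; these counts follow from the choice of the genes and nothing is read from them. The called gene nearest the threshold for pmk-1(-) with mgDf50 was W06A11.4 (adjusted p = 0.0795), and the nearest uncalled gene was F25E5.1 (adjusted p = 0.112, difference 1.5). For pmk-1(D327E) with mgDf50, clec-223 lay just inside (0.0754) and ZC317.7 just outside (0.114), and with m26, F25E5.1 lay inside (0.0277) and cls-3 outside (0.132). For pmk-1(-) with m26, T03D3.5 was the last called (0.00749) and F25E5.1 the first not called (0.131). Called genes were not all chosen: clec-223, F56A4.3 and fbxa-192 also passed for pmk-1(-) with mgDf50. For pmk-1(D327E), 2 of the 14 genes called with mgDf50 and none of the 3 called with m26 were among the 8.

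**Figure D1:**
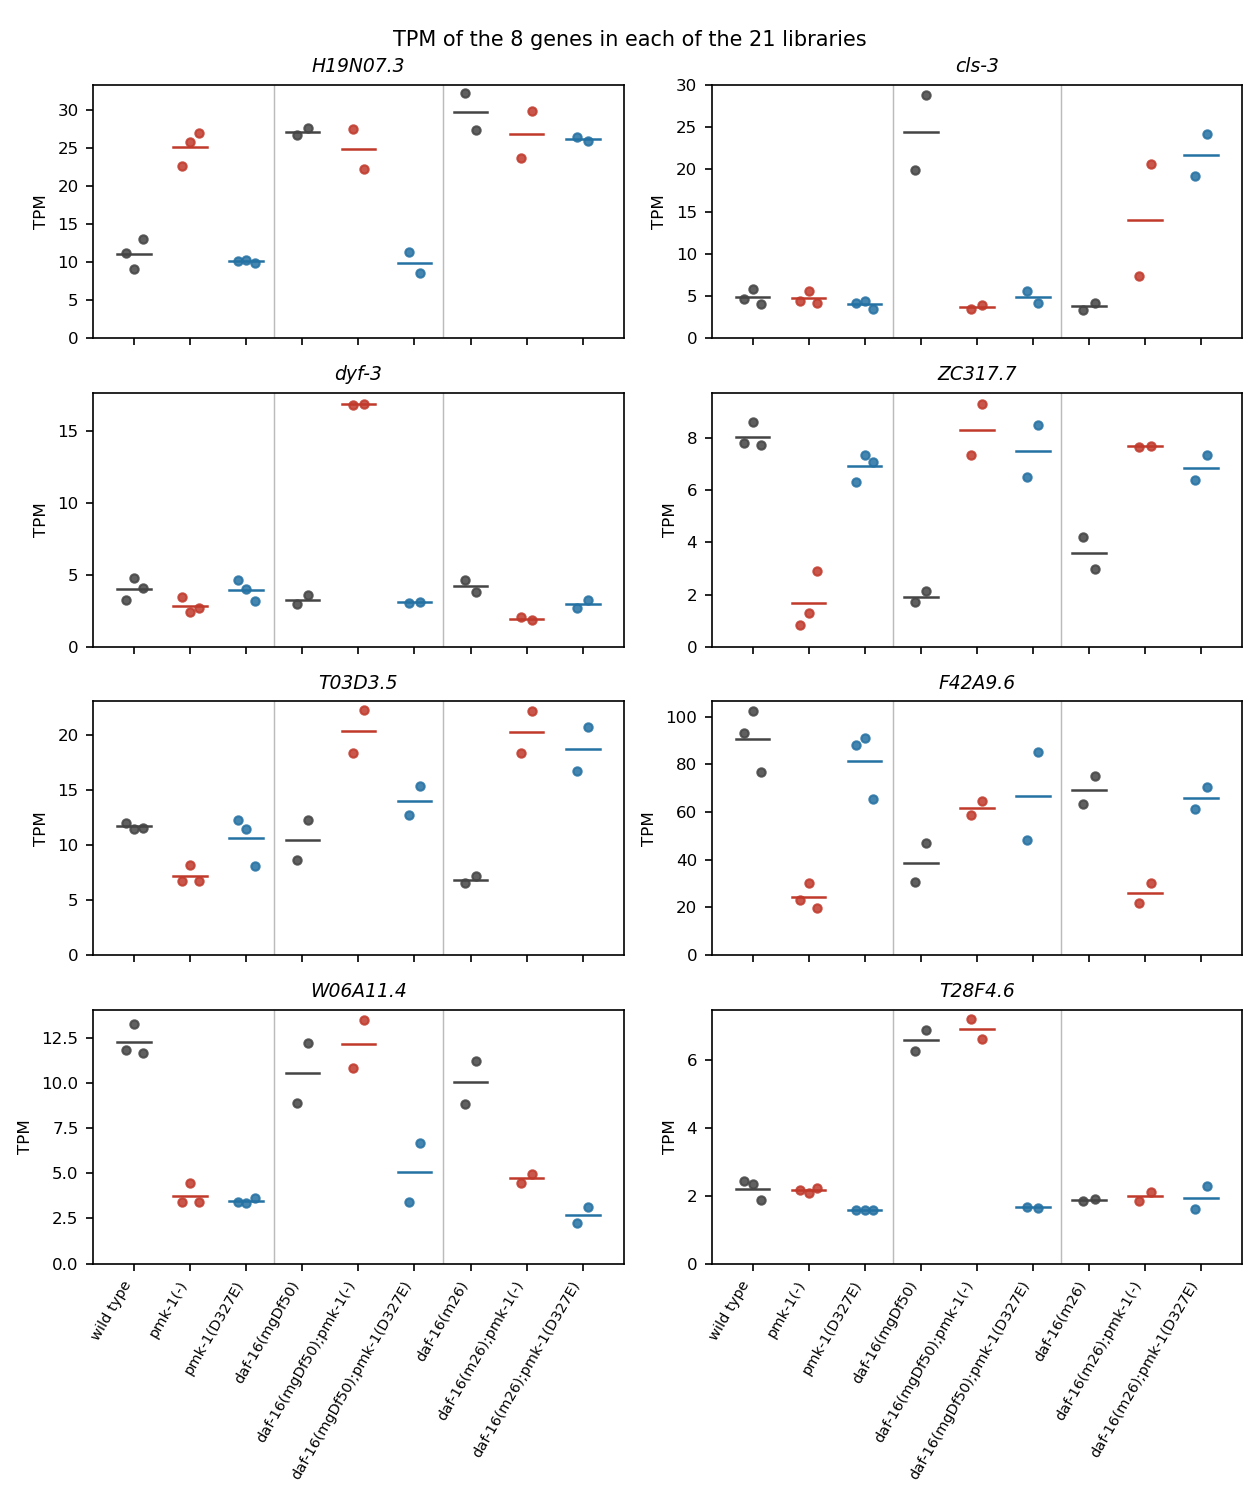
Each panel plots the TPM of a gene (vertical axis, from 0) in each of the 21 libraries by genotype (horizontal axis), with points for libraries and a line for the genotype mean. Colours mark the pmk-1 genotype and vertical lines separate the daf-16 backgrounds; the 2 libraries of the mgDf50 double with pmk-1(-) stand alone for dyf-3 at 16.8 and 16.9 TPM, and 8 low and 13 high libraries do not overlap for H19N07.3.

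H19N07.3 is named nhj-1 in RefSeq and scb-1 in Ensembl, and is known for DNA repair by non-homologous end joining and for the response to bleomycin. It had a low and a high level, with nothing between 13.1 and 22.2 TPM. It was low in wild type, at 11.2, 9.11 and 13.1 TPM, in pmk-1(D327E), at 10.2, 10.3 and 9.95 TPM, and in the mgDf50 double with pmk-1(D327E), at 11.3 and 8.62 TPM. It was high in pmk-1(-), at 22.7, 25.8 and 27.0 TPM, in daf-16(mgDf50), at 26.7 and 27.6 TPM, and in the mgDf50 double with pmk-1(-), at 27.5 and 22.2 TPM. All 3 genotypes with m26 were high, at 32.2 and 27.4 TPM in daf-16(m26), 23.7 and 29.9 TPM in its double with pmk-1(-) and 26.5 and 25.9 TPM in its double with pmk-1(D327E). The pmk-1(-) mutation thus went with a level 1.12 (SE 0.14) higher on the log2 scale where daf-16 was intact and with a difference of -0.13 (SE 0.17) in mgDf50 and -0.15 (SE 0.17) in m26. The alleles parted at pmk-1(D327E), which went with a lower level in mgDf50 (-1.37, SE 0.17) and with a difference of -0.17 (SE 0.17) in m26. The gene overlaps math-33 on the opposite strand. math-33 lay between 90.4 and 133 TPM, and its own interactions were not called (adjusted p at least 0.894 in all 4, limma).

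cls-3 encodes a member of the CLASP family, proteins that bind microtubule ends and keep them from shrinking. It was at a low level of 3.39 to 5.88 TPM in 6 genotypes and several times higher in 2 that share neither their daf-16 allele nor their pmk-1 genotype. It was 20.0 and 28.8 TPM in daf-16(mgDf50) and 19.2 and 24.1 TPM in the m26 double with pmk-1(D327E). In the m26 double with pmk-1(-) the libraries parted, at 7.33 and 20.6 TPM. Wild type had 4.69, 5.88 and 4.02 TPM, pmk-1(-) 4.40, 5.58 and 4.21 TPM, pmk-1(D327E) 4.16, 4.44 and 3.47 TPM, and daf-16(m26) 3.39 and 4.23 TPM. The mgDf50 doubles had 3.51 and 3.95 TPM with pmk-1(-) and 5.56 and 4.14 TPM with pmk-1(D327E), so neither overlapped daf-16(mgDf50) itself. The pmk-1(-) effect was accordingly -0.03 (SE 0.27) with daf-16 intact, -2.40 (SE 0.33) in mgDf50 and 1.49 (SE 0.33) in m26, and the pmk-1(D327E) effect was -0.22 (SE 0.27), -2.11 (SE 0.33) and 2.23 (SE 0.33). The value of 1.49 rests on libraries that differed from each other more than any other pair of cls-3 replicates. Of the family's other members, cls-1 had genotype means of 7.43 to 13 TPM, the highest also in daf-16(mgDf50), and passed for a higher level in the daf-16 mutants averaged over pmk-1 genotypes (0.42, adjusted p = 0.0834, limma). The genotype means of cls-2 were 26.2 to 31.6 TPM. Of 8 tested genes of CLASP and microtubule plus ends, cls-3 alone was called for any interaction, which is what it was chosen for. Only 0.0156% to 0.109% of all genes tested were called per interaction, so nothing is read from the other members. ZC84.7, which overlaps cls-3 on the opposite strand, was at most 0.693 TPM.

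dyf-3 encodes the C. elegans homologue of CLUAP1, a part of the intraflagellar transport machinery of ciliated sensory neurons, and is named for the loss of dye filling in its mutants. It was high in 1 genotype, which lay apart from the other 8, and lowest in the m26 double with pmk-1(-), which lay just below the rest. The mgDf50 double with pmk-1(-) had 16.8 and 16.9 TPM, and the other 19 libraries had 1.86 to 4.78 TPM. Wild type had 3.25, 4.78 and 4.07 TPM, pmk-1(-) 3.43, 2.40 and 2.72 TPM, and daf-16(mgDf50) 2.96 and 3.61 TPM, so that the double lay above both of its single mutants. Its counterpart with m26 had 2.07 and 1.86 TPM, below the 4.64 and 3.82 TPM of daf-16(m26). The genotypes with pmk-1(D327E) had 4.62, 3.99 and 3.20 TPM with daf-16 intact, 3.08 and 3.13 TPM with mgDf50 and 2.70 and 3.27 TPM with m26. The pmk-1(-) effect was -0.39 (SE 0.15) with daf-16 intact, 2.07 (SE 0.19) in mgDf50 and -0.81 (SE 0.19) in m26. In the same 2 libraries the summed ciliated neuron markers were 5.46 and 6.61 TPM, inside the 4.57 to 8.02 TPM of all libraries, while the summed yolk protein genes were the highest of all, at 14500 and 16045 TPM; the part of the latter in the dyf-3 level was not tested. Fewer cells of a type and less RNA per cell cannot be told apart in whole worms. Of 20 genes of intraflagellar transport only dyf-3 and osm-1 passed the filter on low values, and osm-1 had genotype means of 2.02 to 2.53 TPM and no called interaction. Few genes of any kind were called for an interaction, so nothing is read from the absence of a call for osm-1.

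ZC317.7, T03D3.5 and F42A9.6 are coding genes that carry only sequence names, and no role is given for them here. ZC317.7 was low in 3 single mutants and near its wild-type level in every double mutant. Wild type had 7.82, 8.63 and 7.73 TPM, and pmk-1(-) had 0.849, 1.28 and 2.90 TPM. The single mutants daf-16(mgDf50), with 1.71 and 2.13 TPM, and daf-16(m26), with 4.22 and 3.00 TPM, were also low, and the 2 alleles did not overlap. In the doubles with pmk-1(-) the level was 7.33 and 9.31 TPM for mgDf50 and 7.68 and 7.70 TPM for m26. With pmk-1(D327E) it was 6.30, 7.36 and 7.07 TPM with daf-16 intact, 6.53 and 8.51 TPM in mgDf50 and 6.37 and 7.35 TPM in m26. The pmk-1(-) mutation again went with a lower level where daf-16 was intact (-1.83, SE 0.22) and with a higher one in both mgDf50 (1.67, SE 0.27) and m26 (0.93, SE 0.27). Both pmk-1 effects in a background are read against the same libraries, so they are not separate evidence.

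T03D3.5 moved in the same directions as ZC317.7 with pmk-1(-) but passed beyond wild type in the doubles. It was 12.1, 11.5 and 11.6 TPM in wild type and 6.73, 8.19 and 6.71 TPM in pmk-1(-). It was 18.4 and 22.3 TPM in the mgDf50 double with pmk-1(-) and 18.4 and 22.2 TPM in the m26 double, above every other library except the m26 double with pmk-1(D327E), which had 16.7 and 20.7 TPM. The alleles did not overlap as single mutants with pmk-1 intact, with 8.64 and 12.3 TPM for daf-16(mgDf50) and 6.56 and 7.18 TPM for daf-16(m26). They did not overlap with pmk-1(D327E) either, where mgDf50 had 12.7 and 15.4 TPM, and pmk-1(D327E) alone had 12.3, 11.5 and 8.09 TPM. The pmk-1(-) effect was -0.63 (SE 0.17) with daf-16 intact, 0.91 (SE 0.20) in mgDf50 and 1.43 (SE 0.20) in m26.

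F42A9.6, with the highest level of the 8, was lower in pmk-1(-) than in its control in m26, as with daf-16 intact, and higher in mgDf50. Wild type had 93.0, 102 and 76.9 TPM and pmk-1(-) 23.3, 30.1 and 20.0 TPM. In m26 the level was 63.2 and 75.3 TPM for the single mutant and 21.8 and 30.1 TPM with pmk-1(-), a difference of -1.39 (SE 0.28) beside -1.86 (SE 0.22) with daf-16 intact. In mgDf50 the single mutant was already low, at 30.8 and 46.8 TPM, and the double with pmk-1(-) was higher, at 58.9 and 64.4 TPM (0.68, SE 0.28). With pmk-1(D327E) the level was 88.1, 90.8 and 65.5 TPM, 48.4 and 85 TPM in mgDf50 and 61.2 and 70.4 TPM in m26, and only in mgDf50 did these libraries not overlap their single mutant. F42A9.17, which overlaps the gene on the opposite strand, was at 0.665 to 5.6 TPM, below F42A9.6 in every genotype, and its interactions were not called.

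W06A11.4 is annotated as a pseudogene, so how its reads were shared with related sequences is uncertain. Its level was set apart by pmk-1 genotype in every background but for pmk-1(-) in mgDf50. Wild type had 11.8, 13.2 and 11.6 TPM, daf-16(mgDf50) 8.87 and 12.2 TPM and daf-16(m26) 8.83 and 11.2 TPM. With pmk-1(D327E) the level was low in all backgrounds, at 3.39, 3.33 and 3.61 TPM with daf-16 intact, 3.43 and 6.65 TPM in mgDf50 and 2.22 and 3.12 TPM in m26. With pmk-1(-) it was 3.43, 4.44 and 3.39 TPM with daf-16 intact and 4.46 and 4.95 TPM in m26, but 10.8 and 13.5 TPM in mgDf50, which overlapped wild type and both daf-16 single mutants and held the highest of the 21 libraries. The pmk-1(-) effect was -1.48 (SE 0.19) with daf-16 intact, 0.19 (SE 0.23) in mgDf50 and -0.94 (SE 0.23) in m26.

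T28F4.6 could not be matched to the annotation used and no role is given for it. It was at 6.28 and 6.88 TPM in daf-16(mgDf50) and at 7.21 and 6.62 TPM in the mgDf50 double with pmk-1(-), and at 2.43 TPM or less in the other 17 libraries. The third mgDf50 genotype, the double with pmk-1(D327E), had 1.68 and 1.64 TPM, beside 1.57, 1.58 and 1.59 TPM for pmk-1(D327E) itself. Wild type had 2.43, 2.34 and 1.87 TPM, pmk-1(-) 2.18, 2.08 and 2.22 TPM and daf-16(m26) 1.83 and 1.91 TPM. The m26 doubles had 1.86 and 2.12 TPM with pmk-1(-) and 1.60 and 2.29 TPM with pmk-1(D327E), so no m26 genotype was raised. The pmk-1(D327E) effect was -1.51 (SE 0.14) in mgDf50, -0.31 (SE 0.12) with daf-16 intact and 0.03 (SE 0.14) in m26.

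**Figure D2:**
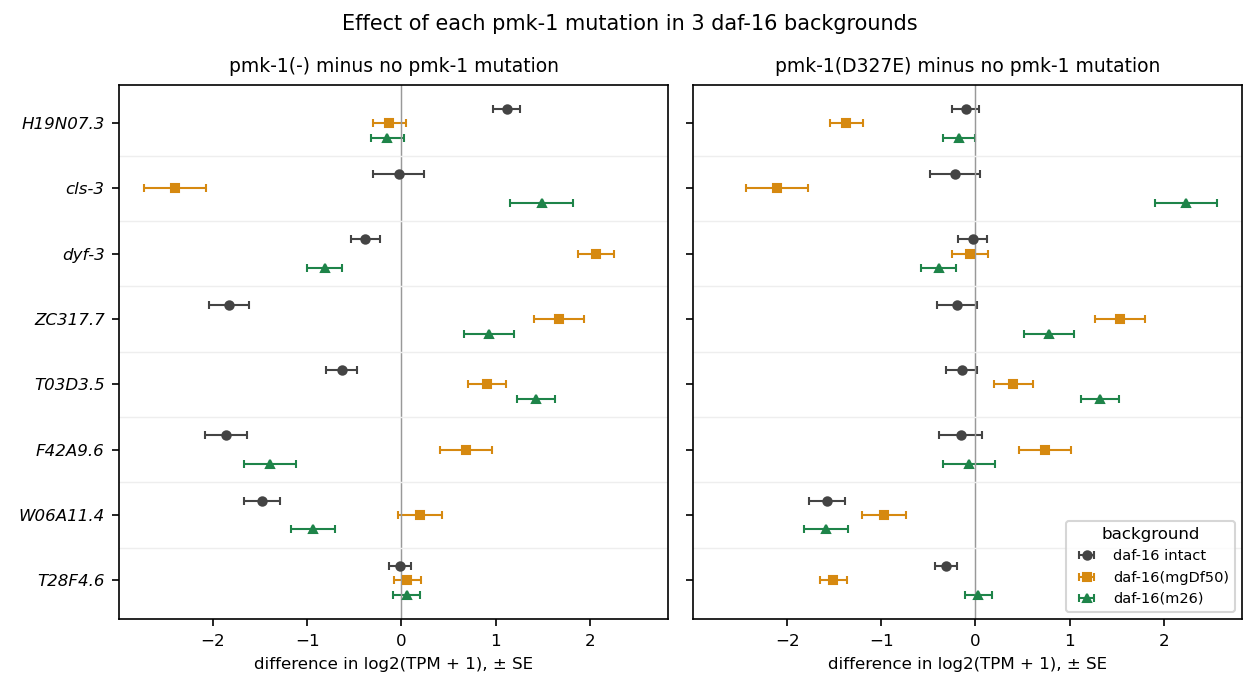
The difference in log2(TPM + 1) between worms with and without a pmk-1 mutation (horizontal axis, ± SE of the fit) is plotted for each gene (vertical axis), with pmk-1(-) on the left and pmk-1(D327E) on the right. Symbols give the daf-16 background; the squares for mgDf50 and the triangles for m26 lie on opposite sides of 0 for cls-3 in both panels, at -2.40 and 1.49 for pmk-1(-) and at -2.11 and 2.23 for pmk-1(D327E), and on the same side for ZC317.7 and T03D3.5.

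The 2 daf-16 alleles were then compared over all pmk-1 genotypes. On the mean of the pmk-1 genotypes, T28F4.6, dyf-3 and W06A11.4 were lower in m26 than in mgDf50, and H19N07.3 was higher. The mean difference over the 3 pmk-1 genotypes was -0.89 for T28F4.6 (SE 0.08, lower in 5 of 6 libraries, adjusted p = 3.36e-05), -0.78 for dyf-3 (SE 0.11, lower in 3 of 6, adjusted p = 0.00197), -0.64 for W06A11.4 (SE 0.14, lower in 5 of 6, adjusted p = 0.0508) and 0.52 for H19N07.3 (SE 0.10, higher in 5 of 6, adjusted p = 0.0287; limma, Benjamini-Hochberg). These 4 of 8 genes stand beside 0.662% of all genes tested that passed. The means of the other 4 ranged from -0.12 for F42A9.6 to 0.36 for cls-3 and did not pass. Errors of this mean are uncorrelated with those of the interactions that chose the genes, but a genotype that stands alone moves both, so the count is not read against the share of all genes. By pmk-1 genotype, and with no test, the dyf-3 mean came from pmk-1(-), where the alleles differed by -2.59 (SE 0.19), beside 0.29 (SE 0.19) with pmk-1 intact and -0.05 (SE 0.19) with pmk-1(D327E). The H19N07.3 mean came from pmk-1(D327E), at 1.32 (SE 0.17), beside 0.12 and 0.10 (SE 0.17 each) in the other genotypes. T28F4.6 differed by -1.40 (SE 0.14) both with pmk-1 intact and in pmk-1(-), and by 0.14 (SE 0.14) with pmk-1(D327E). W06A11.4 differed by -1.20 in pmk-1(-) and by -0.68 with pmk-1(D327E), beside -0.06 with pmk-1 intact (SE 0.23 each). For cls-3 a mean of 0.36 joined -2.38 (SE 0.33) with pmk-1 intact, 1.51 (SE 0.33) in pmk-1(-) and 1.96 (SE 0.33) with pmk-1(D327E), and for F42A9.6 a mean of -0.12 joined 0.84, -1.23 and 0.03 (SE 0.28 each). The W06A11.4 call was lost without replicate 2 of any mgDf50 genotype, without replicate 1 of any m26 genotype or without replicate 2 of the m26 double with pmk-1(-) (adjusted p = 0.106 to 0.195). The H19N07.3 call was lost without replicate 2 of either mgDf50 double, replicate 1 of daf-16(m26) or of its double with pmk-1(D327E), or replicate 2 of its double with pmk-1(-) (adjusted p = 0.102 to 0.124).

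**Figure D3:**
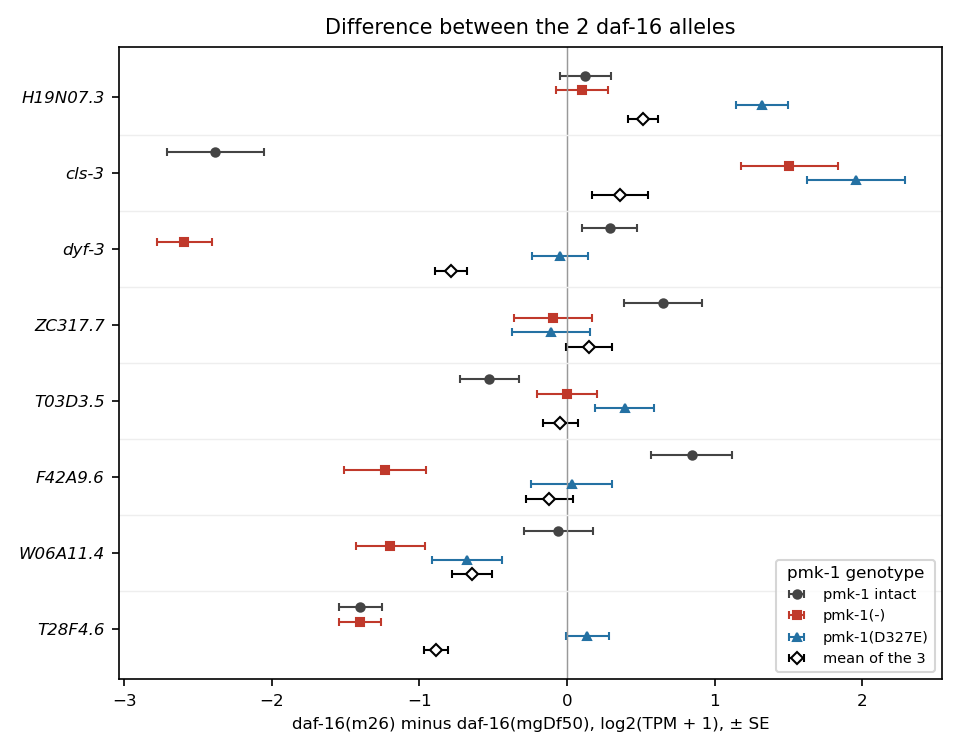
For each gene (vertical axis) the difference in log2(TPM + 1) between daf-16(m26) and daf-16(mgDf50) is plotted (horizontal axis, ± SE of the fit) in worms with pmk-1 intact, pmk-1(-) and pmk-1(D327E), with the mean of the 3 as an open diamond. The diamonds of T28F4.6 (-0.89) and dyf-3 (-0.78) lie farthest from 0, and the separate values of cls-3 spread from -2.38 to 1.96 around a mean of 0.36.

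Averaged over pmk-1 genotypes and alleles, the daf-16 mutants were higher for cls-3 by 0.86 (SE 0.15, higher in 8 of 12 libraries, adjusted p = 0.00941), for H19N07.3 by 0.65 (SE 0.08, 9 of 12, adjusted p = 0.000419), for T03D3.5 by 0.51 (SE 0.09, 9 of 12, adjusted p = 0.0117) and for T28F4.6 by 0.42 (SE 0.06, 8 of 12, adjusted p = 0.00378; limma, Benjamini-Hochberg). All 4 differences that passed were positive. Of all genes tested 3.95% passed, 336 with a positive and 171 with a negative difference. The direction of the 4 was thus also the commoner one, and nothing is read from it. The count of 507 genes was 100 without pmk-1(D327E) replicate 2 and 4229 without pmk-1(-) replicate 1. The other 4 ranged from -0.14 for F42A9.6 to 0.23 for W06A11.4 and did not pass in this fit. With the replicate number added to the limma fit as a block, F42A9.6 passed as lower (-0.27, adjusted p = 0.0166). ZC317.7 and W06A11.4 then passed as higher, as given in the section on processing. With pmk-1 intact, and with no test, H19N07.3 was higher than wild type in both alleles, by 1.23 (SE 0.16) in mgDf50 and 1.35 (SE 0.16) in m26. The other means joined unlike values. For cls-3 the difference was 2.10 (SE 0.30) in mgDf50 and -0.28 (SE 0.30) in m26, and for T28F4.6 it was 1.24 (SE 0.13) and -0.16 (SE 0.13), with no m26 genotype raised. T03D3.5 had -0.17 (SE 0.19) and -0.69 (SE 0.19) in the single mutants, so its positive mean came from the doubles. Against the matching genotype with daf-16 intact, no called gene was higher in all 12 libraries. As between the alleles, a genotype that stands alone moves both this mean and the interactions that chose the genes. The count of 4 is therefore not read against the share of all genes.

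Averaged over daf-16 backgrounds, the pmk-1(-) mean was lower for F42A9.6 and the pseudogene W06A11.4 and higher for H19N07.3, in each case with a background that departed from it. The mean effect was -1.0 for F42A9.6 (SE 0.15, lower in 5 of 7 libraries, adjusted p = 0.00148), -0.85 for W06A11.4 (SE 0.13, 5 of 7, adjusted p = 0.00148) and 0.40 for H19N07.3 (SE 0.09, higher in 5 of 7, adjusted p = 0.0503), beside 1.67% of all genes tested that passed (limma, Benjamini-Hochberg). ZC317.7, whose effects were opposite in worms with daf-16 intact and in both daf-16 mutants, averaged -0.04 (SE 0.14). In mgDf50, as given above, F42A9.6 was higher with pmk-1(-) (0.68) and W06A11.4 differed by 0.19, and the H19N07.3 mean came from worms with daf-16 intact (1.12), beside -0.13 in mgDf50 and -0.15 in m26. With pmk-1(D327E), W06A11.4 was lower (-1.41, SE 0.13, 7 of 7 libraries, adjusted p = 8.7e-05), T28F4.6 had -0.56 (SE 0.08, 6 of 7, adjusted p = 0.00394) and H19N07.3 had -0.49 (SE 0.09, 7 of 7, adjusted p = 0.047), beside 0.28% of all genes. The pmk-1(D327E) mean of H19N07.3 came from mgDf50 (-1.37), beside -0.11 with daf-16 intact and -0.17 in m26, and that of T28F4.6 mostly from mgDf50 (-1.51). A genotype that stands alone can move both such a mean and the interactions that chose the genes. The calls for pmk-1(-) and pmk-1(D327E) are therefore not read against the shares of all genes. The pmk-1(-) call of H19N07.3 was lost without any of 7 libraries (replicate 3 of pmk-1(-), 1 or 2 of wild type, 1 of daf-16(mgDf50) or of its double with pmk-1(-), and 2 of daf-16(m26) or of its double with pmk-1(-)), with an adjusted p of 0.111 to 0.165. Its pmk-1(D327E) call was lost without any of 10 libraries (every pmk-1(D327E) library, 1 or 3 of wild type, 2 of daf-16(mgDf50) or of its double with pmk-1(D327E), 1 of daf-16(m26) and both of its double with pmk-1(D327E)), with an adjusted p of 0.106 to 0.177.

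**Figure D4:**
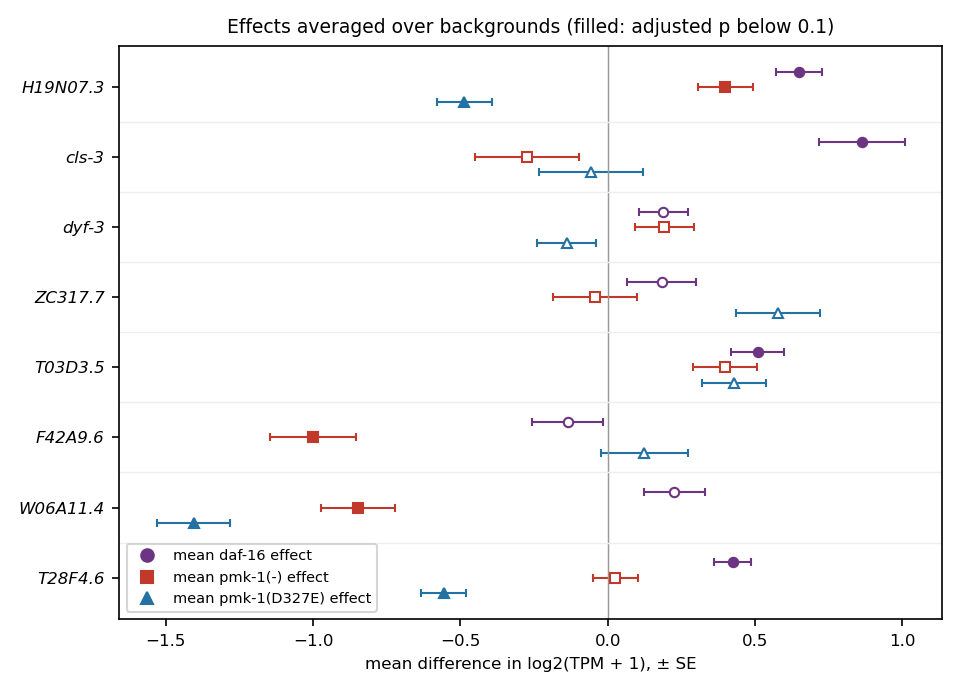
Mean differences in log2(TPM + 1) (horizontal axis, ± SE of the fit) are plotted for each gene (vertical axis) for the daf-16 mutations, for pmk-1(-) and for pmk-1(D327E), averaged over the other gene's genotypes, with filled symbols at an adjusted p below 0.1. The 4 filled circles for daf-16 all lie to the right of 0, from 0.42 to 0.86, and W06A11.4 has the lowest value, -1.41 with pmk-1(D327E).

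The known genes of both pathways were not called for the dependence that the 8 genes were chosen for, but few genes of any kind were. None of 14 genes of the p38 pathway, 12 of the insulin pathway, 11 tested immune targets of PMK-1 and 12 tested targets of DAF-16 was called for any of the 4 interactions (limma), and at an unadjusted p below 0.05 in any of the 4 the numbers were 0, 2, 2 and 0. Of all 12843 genes tested, 0.0156% to 0.109% were called per interaction. At an unadjusted p below 0.05 (limma) there were 163 and 169 for pmk-1(-) with mgDf50 and m26, and 144 and 89 for pmk-1(D327E). Lists this short would hold few or no calls at these shares, so nothing is read from their absence. The immune targets, among them T24B8.5, were lower in the mean pmk-1(-) effect in 11 of 11 cases (median -3.42, beside -0.03 over all genes tested), and 7 were higher and none lower in the mean pmk-1(D327E) effect (median 1.64, beside -0.02). Of all genes tested, 177 were called lower and 38 higher for pmk-1(-), and 25 higher and 11 lower for pmk-1(D327E). Of the DAF-16 targets 4 fell in the mean daf-16 effect, sod-3 by 0.69 and lys-7 by 0.77 among them. For daf-16, 171 of all genes tested were called lower and 336 higher. The lists were chosen with earlier results of these data known, so nothing is read from these counts. The 8 genes spread more between genotypes than most: the range of their genotype means on the log2(TPM + 1) scale had a median of 1.86, beside 0.40 over all genes tested, a difference that the choice itself brings. Among themselves they did not form a single pattern. Over the 21 libraries the highest Pearson correlation of log2(TPM + 1) between any pair was 0.68, for ZC317.7 and T03D3.5, and the lowest was -0.60, for F42A9.6 and H19N07.3.

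The genes most like each in pattern were found by Pearson correlation of log2(TPM + 1) over the 21 libraries, which share genotypes, so no p is given. T28F4.6 was followed by Y48B6A.1 (r = 0.95), rpl-43, which encodes a protein of the large ribosomal subunit (0.89), and ZK669.4 (0.87). All 3 were highest in the 2 genotypes where T28F4.6 was high. Y48B6A.1 had 106 to 114 TPM there and 66.2 to 84.7 TPM elsewhere, and rpl-43 had 2655 to 3167 TPM there and 1312 to 2258 TPM elsewhere. Y48B6A.1 was itself called for the interaction of pmk-1(D327E) with mgDf50 (-0.66, adjusted p = 0.0700, limma). Y48B6A.1 and rpl-43 are direct neighbours on chromosome II among coding genes and pseudogenes. W06A11.4 was followed by ZC204.14 (0.91), wdfy-3 (0.81) and Y34F4.3 (0.75), H19N07.3 by F57A10.2 (0.87), the saposin-like spp-14 (0.77) and the C-type lectin clec-81 (0.75), and F42A9.6 by the C-type lectin clec-223 (0.82), Y48G8AL.7 (0.77) and H29C22.1 (0.76). For ZC317.7 the nearest were the F-box gene fbxa-108 (0.79), 21ur-14454 (0.72) and C56G7.3 (0.70), and for T03D3.5 they were ZC317.7 (0.68), 21ur-14454 (0.63) and ZK686.3 (0.61). The relations of dyf-3 to M88.4 (0.67), R02F2.1 (0.64) and cutl-18 (0.64), and of cls-3 to ndx-9 (0.63), 21ur-13145 (0.62) and dnj-14 (0.59), and those of T28F4.6, were weaker by rank, and all 3 genes were high in few libraries. Spearman's rho was 0.31, 0.18 and 0.37 for dyf-3, 0.46, 0.29 and 0.30 for cls-3 and 0.65, 0.45 and 0.46 for T28F4.6.

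The genes found in the annotation lay on several chromosomes, and their nearest tested neighbours, like nearly all genes, were not called for the interactions. Of the 7 found in the annotation, ZC317.7, T03D3.5 and H19N07.3 lie on chromosome V, F42A9.6 and dyf-3 on IV, W06A11.4 on II and cls-3 on III. F42A9.6 and dyf-3 share chromosome IV with pmk-1, from which 114 and 1087 genes separate them. The nearest tested gene on either side of each of the 7 had an adjusted p of at least 0.894 in all 4 interactions (limma). Only 0.0156% to 0.109% of all genes tested were called per interaction, so nothing is read from the neighbours.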

How the data were processed

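Whole-worm poly(A) mRNA was sequenced in 21 libraries of 9 genotypes. Per the labels and the study's methods, the authors aligned single-end reads of 76 bases with STAR (2.5.3a in the submitters' processing notes, which also name FastQC 0.11.2, Picard 2.10, Subread, edgeR and build ce10), removed duplicates, counted reads per RefSeq gene with featureCounts and deposited TPM for 22840 genes. The strand setting of the counting is not given in the sources used here. The authors' 8 comparison tables (fold changes, scores, p-values) were not used. Samples were grouped by their labels, and every value column was mapped.

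From the deposited TPM, log2(TPM + 1) was fitted for the 12843 genes whose mean TPM reached 1, with limma 3.58.1 (R 4.3.3; trend, robust) in one model of 9 genotypes with Benjamini-Hochberg adjustment and calls at an adjusted p below 0.1, after the fit had been tested on simulated data. Fold changes on this scale understate those of low genes. Mean pmk-1 effects weight the intact, mgDf50 and m26 backgrounds by 3, 2 and 2 of 7. Interactions, and effects within a background or a pmk-1 genotype, are descriptions. Choosing by interaction p also favours genes of low spread. The named genes are the 8, pmk-1, daf-16, the 3 genes most correlated with each, the genes nearest each interaction threshold and fixed pathway lists; others were named after their values were seen. Members and lists were chosen with earlier results of these data known. Names and gene order come from WBcel235, which differs from ce10, so no coordinates or sequences are printed. Figures used Python 3.11.15, pandas 2.3.3, numpy 2.4.6 and matplotlib 3.10.9.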

Additional observations from a re-analysis of the deposited data

Results flagged for a closer look

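In 4 of 16 pairs of a gene and a pmk-1 mutation, every library of the pmk-1 mutant moved one way in daf-16(mgDf50) and the opposite way in daf-16(m26). Each was set against the single mutant of that allele. Groups of 2 libraries part easily and the share over all genes was not computed, so the count itself is not read. The differences between the alleles were not tested, since the genes were chosen on the interactions they come from. For cls-3 the pmk-1(-) effect was 3.89 higher (SE 0.47, log2) in m26 than in mgDf50, and the pmk-1(D327E) effect was 4.34 higher (SE 0.47); the first includes the library of the m26 double at 7.33 TPM beside its replicate at 20.6 TPM. For dyf-3 the pmk-1(-) effect differed by -2.88 (SE 0.27) and for F42A9.6 by -2.08 (SE 0.39), m26 minus mgDf50.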

How the results depend on the processing

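Direction held for all 14 called mean effects of the 8 genes under every alternative, and 10 of the 14 stayed called whichever library was left out; the other 4 are those of W06A11.4 (alleles) and H19N07.3 (alleles and both pmk-1 mutations) described above. The allele calls of W06A11.4 and H19N07.3 were also lost with the daf-16 mutants fitted alone (adjusted p = 0.309 and 0.139), which left 2 of the 8 and 56 genes called, with fewer libraries to estimate the spread. Without a filter on low values the pmk-1(D327E) mean called 60 genes and the interactions 20 and 7 (pmk-1(-) with mgDf50 and m26) and 30 and 8 (pmk-1(D327E)). With a minimum mean of 5 TPM, which removes dyf-3 and T28F4.6, 2 of the 8 passed between alleles, and the counts of genes were 318 (daf-16), 135 (pmk-1(-)), 22 (pmk-1(D327E)) and 5 (pmk-1(D327E) with mgDf50). Scaling each library to the median gave 4 and 5 genes for the m26 interactions and called T03D3.5 for pmk-1(-) (0.42, adjusted p = 0.0577). A pseudocount of 0.1 gave larger differences for low genes, up to 4.43 for ZC317.7 (pmk-1(-) with mgDf50).

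Of 75 pairs of libraries that share a replicate number, 67 had a correlation of deviations above 0.1 and the lowest was -0.32. The other 8 pairs all held pmk-1(D327E) replicate 1. Both titles of the mgDf50 double with pmk-1(-) say replicate 1, so its replicate numbers were taken from the codes in those titles. Deviations in a group of 2 libraries mirror each other, so 2 such groups give the same correlation for both replicate numbers. The 75 values are therefore not all separate. The numbers were not taken to pair all samples. Only the genotypes with daf-16 intact had a replicate 3, so daf-16 and replicate number are partly mixed in the fit without a block. With the replicate block 7 of the 8 genes passed for daf-16, and the counts were 182 genes (alleles), 7921 (daf-16), 450 (pmk-1(-)), 56 (pmk-1(D327E)), 5 (pmk-1(-) with m26), 29 and 5 (pmk-1(D327E) with mgDf50 and m26); the cause was not tested. The block also called ZC317.7 (0.28, adjusted p = 0.0601), F42A9.6 (-0.27, lower, 0.0166) and W06A11.4 (0.21, 0.0498) for daf-16 and T03D3.5 for both pmk-1 mutations.

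With each library left out in turn, the genes called ranged from 100 to 4229 (daf-16, 507 with all), 57 to 110 (alleles), 161 to 3.3e2 (pmk-1(-), the latter rounded), 25 to 42 (pmk-1(D327E)), and for the interactions from 4 to 9 and 0 to 5 (pmk-1(-) with mgDf50 and m26) and 5 to 16 and 2 to 4 (pmk-1(D327E)). The daf-16 count was 4229 without pmk-1(-) replicate 1, 2203 without daf-16(mgDf50) replicate 2 and 100 to 191 without either other pmk-1(-) library, replicate 1 or 2 of pmk-1(D327E) or wild type, replicate 1 of any other daf-16 genotype or of daf-16(mgDf50), or replicate 2 of the m26 double with pmk-1(-). The highest pmk-1(-) count came without daf-16(mgDf50) replicate 2, and the count of 0 (pmk-1(-) with m26) without replicate 2 of the m26 double with pmk-1(-). Of the 8 genes, 2 to 4 passed between alleles. Some uncalled effects became called: ZC317.7 with pmk-1(D327E) without pmk-1(-) replicate 1 or 3, T03D3.5 with both mutations without pmk-1(D327E) replicate 3 and with pmk-1(-) without daf-16(mgDf50) replicate 2, and dyf-3 with daf-16 without pmk-1(-) replicate 1. Uncalled effects near 0 changed sign, with ranges of -0.12 to 0.032 for T03D3.5 and -0.25 to 0.014 for F42A9.6 (alleles), -0.17 to 0.056 for ZC317.7 and -0.0091 to 0.047 for T28F4.6 (pmk-1(-)) and -0.13 to 0.017 for cls-3 (pmk-1(D327E)). No depth can limit a statement here, since TPM holds none.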
